A study of Mus musculus with 6 samples.

Results

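The 5 genes of mouse chromosome 17 described here are the Dynlt1 copies Dynlt1a, Dynlt1b, Dynlt1c and Dynlt1f and the adjoining Tmem181a. They were taken by symbol from the deposited tables, and 5 of 5 were found among the 21899 genes listed. The set was chosen by its measured values, the counts in KO against WT and their fold changes. That contrast is therefore given for the members as a description, and nothing is read from a test of it. The samples were induced regulatory T cells (iTregs), which are T cells that take on the suppressive Foxp3-positive state in culture. KO samples came from Dlst-Treg iKO mice (genotype label KO, n = 3) and WT samples from iWT mice (genotype label WT, n = 3). Dlst encodes a subunit of the 2-oxoglutarate dehydrogenase complex of the citric acid cycle. All 6 samples began as CD4+ T cells of the spleen, were polarised for 2 days with 4-hydroxytamoxifen, and were sorted as CD4+ cells positive for a FoxP3-GFP reporter and tdTomato-RFP before mRNA sequencing. The labels used here do not state the Dlst allele, the Cre driver, the age or the number of mice. They also do not state whether the samples are separate animals or cultures, so spreads and p-values refer to these samples and may in part be technical.

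Dynlt1, also called Tctex-1, is a small light chain of cytoplasmic dynein-1, the motor that carries cargo along microtubules towards their minus ends. It binds the intermediate chains of the motor, and several cargo proteins have been described as its partners. Dynein moves the centrosome and vesicles in T cells, for example towards the immune synapse. Tmem181a encodes a membrane protein with several transmembrane segments, whose human counterpart was described as a host factor for a bacterial toxin. The mouse carries several nearly identical Dynlt1 copies side by side, so that a read from one often fits another.

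The copies were first compared by sequence, because that decides how far their counts can be told apart. Each of the 4 Dynlt1 copies had an annotated coding frame of 342 bases over 5 exons (GENCODE M21, GRCm38). Those of Dynlt1a, Dynlt1c and Dynlt1f were identical, and each differed from that of Dynlt1b by the single substitution A21C (99.7% identity), counted from 1 at the A of the start codon with the Dynlt1b base first. The first 60 coding bases are shown because they hold that base, written in capitals. They run from 5′ to 3′ on the coding strand across the first splice junction, at chr17:6314926-6317400 (minus) for Dynlt1a, chr17:6430212-6431912 (plus) for Dynlt1b, chr17:6601810-6603519 (plus) for Dynlt1c and chr17:6653320-6655800 (minus) for Dynlt1f.
Dynlt1b: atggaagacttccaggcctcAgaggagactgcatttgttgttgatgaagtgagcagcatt
Dynlt1f: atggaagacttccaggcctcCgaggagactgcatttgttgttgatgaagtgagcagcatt
Dynlt1a: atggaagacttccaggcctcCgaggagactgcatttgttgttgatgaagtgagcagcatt
Dynlt1c: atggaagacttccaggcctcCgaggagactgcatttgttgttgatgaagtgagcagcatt

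The transcripts of Dynlt1b and Dynlt1f, the most abundant copies, had the same length of 771 bases. They differed at 7 positions (99.1% identity), and their longest identical stretch was 373 bases. Counted from the first transcript base, 4 differences lay before the frame (G44T, C45T, A49G and T91C), 1 lay in the frame (A121C) and 2 lay after it (C495T and C621A), with the Dynlt1b base first. Of all windows of 100 bases in the Dynlt1b transcript, 82.0% were also found in transcripts of another gene, on either strand. The windows of 100 bases found in Dynlt1b alone numbered 121 and started at bases 1 to 121. For Dynlt1f, 85.1% of such windows were found elsewhere, and those of its own started at bases 396 to 495. A read of 100 bases from anywhere else in these transcripts matches a transcript of at least 1 other gene exactly.

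The other members shared less or more, depending on the transcript. Windows of 100 bases found elsewhere made up 50.8% of transcript Dynlt1a-201, 86.5% of Dynlt1c-201 and 32.8% of Tmem181a-204. For Tmem181a the shared windows were mostly those of pseudogenes that the deposited tables do not list, and with listed genes the share was 8.73%. Counts in the tables were estimates: Dynlt1a had a whole number in 1 of 6 samples and each of the other 4 genes in 0 of 6, within a tolerance of 0.005. The sources used here do not state how the authors divided reads that fit several copies, so the level of each copy is uncertain. The summed count of the copies does not depend on how reads are divided among them, as long as those reads were counted. It can depend on reads that also fit other genes. Of the 672 windows of 100 bases in Dynlt1b-201, 222 were also found in the pseudogene Dynlt1-ps1, which the deposited tables do not list. Of the 3222 in Dynlt1a-201, 222 were also found in transcripts of Tmem181a.

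**Figure D1:**
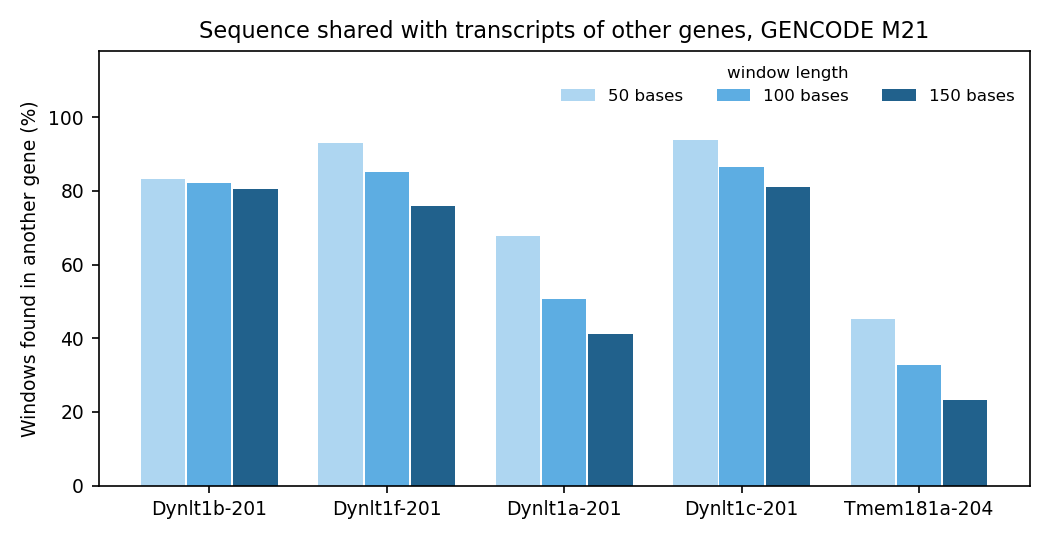
The share of windows, in percent, of 1 transcript of each gene that was also found in transcripts of another gene on either strand, for windows of 50, 100 and 150 bases (bars from light to dark). At 100 bases the share was 82.0% for Dynlt1b-201 and 85.1% for Dynlt1f-201, against 32.8% for Tmem181a-204.

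Together the 5 genes spanned chr17:6256860-6655900, which is 399041 bases (GRCm38). Tmem181a lies first, at chr17:6256860-6308314 on the plus strand, and has 17 exons in its protein-coding transcripts. Dynlt1a follows at chr17:6306340-6317500 on the minus strand, and its end overlaps that of Tmem181a by 1975 bases. The sources used here do not state whether the counting used strand, so reads from that overlap cannot be told apart. Dynlt1b lies at chr17:6430112-6436296 on the plus strand, 112611 bases beyond Dynlt1a. Dynlt1c lies at chr17:6601671-6609774 on the plus strand, and Dynlt1f closes the span at chr17:6646602-6655900 on the minus strand, 36827 bases further on. The annotation places 15 genes in the span, of which the deposited tables list these 5, and the other 10 were not analysed here.

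Some facts of the whole series bear on the values. Libraries held 33590510 to 49772670 estimated counts in KO and 35647816 to 47526481 in WT, and 12768 genes had enough counts to be tested. Dlst itself had 125, 129 and 129 CPM (counts scaled by library size) in KO and 161, 149 and 149 CPM in WT, a log2 fold change of -0.26 (SE 0.05) that did not pass edgeR's quasi-likelihood test (Benjamini-Hochberg adjusted p = 0.0894). Dlst passed in 2 of 18 alternatives, with DESeq2 (adjusted p = 0.00129) and with edgeR without replicate 1 of both groups (adjusted p = 0.0323). The values cover the whole gene, and the labels do not state which part of it is deleted. Foxp3 averaged 222 ± 13.2 CPM in KO and 185 ± 26.5 CPM in WT, and Cd4 averaged 447 ± 16.9 CPM in KO and 512 ± 9.01 CPM in WT (SD, n = 3 each). Of the 6 T cell and Treg markers 1 passed the test, Ikzf2, which encodes the transcription factor Helios, with 21.3, 23.0 and 22.1 CPM in KO and 30.8, 37.3 and 30.6 CPM in WT (log2 fold change -0.57, SE 0.09, edgeR adjusted p = 0.0366). The 6 markers summed to 2914 to 3293 CPM in KO and 3042 to 3487 CPM in WT. KO replicate 1 stood apart, with 80.8 CPM of the Y-linked Ddx3y against at most 0.0257 CPM in any other sample. KO replicates 2 and 3 resembled each other most, with a coefficient of variation beyond counting error of 2.97% over all genes against 7.12 to 14.8% for the other pairs within a group. Summed neutrophil markers reached 65.3 to 287 CPM in KO and 4.61 to 30.4 CPM in WT, and summed macrophage and monocyte markers 89.1 to 347 CPM in KO and 18.9 to 27.1 CPM in WT. Of the 5 macrophage and monocyte markers tested 1 passed, the macrophage mannose receptor gene Mrc1 (log2 fold change 2.37, SE 0.38, edgeR adjusted p = 0.0449), and with the replicate number as a block 2 passed. Of the 5 neutrophil markers tested 0 passed, and with the block 5 did. Both sums were highest in KO replicate 1. Summed CD8 markers reached 86.3 to 100.9 CPM in KO and 42.8 to 77.2 CPM in WT, where 0 of 2 passed. Summed B cell markers reached 18.9 to 19.4 CPM in KO and 8.80 to 61.0 CPM in WT, with 0 of 4 past the test and the highest value in WT replicate 1. DESeq2 called 5 of the 5 neutrophil, 4 of the 5 macrophage and monocyte, and 2 of the 2 CD8 markers. It called 2 of the 6 T cell and Treg markers and 0 of the 4 B cell markers. In the same order 5, 5, 2, 3 and 0 had an unadjusted edgeR p under 0.05. Of all genes tested, edgeR called 0.674% and DESeq2 4.17%, and 15.1% had an unadjusted p under 0.05. No marker of these lists was at 0 in all samples, and their part in the results below was not tested.

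Dynlt1b was the copy whose assigned counts differed between the groups. It stood at 20.7, 20.7 and 22.9 CPM in KO replicates 1 to 3 and at 68.8, 50.0 and 49.8 CPM in WT replicates 1 to 3. Every KO sample lay below every WT sample, and WT replicate 1 lay above the rest of its group. The means were 21.4 ± 1.27 CPM in KO and 56.2 ± 10.9 CPM in WT (SD, n = 3 each), and the estimated counts behind them ran from 692 to 1039 in KO and from 2315 to 2477 in WT. The fitted log2 fold change, KO over WT, was -1.39 (SE 0.13, 95% interval -1.70 to -1.08), a ratio of 0.382. Because this is bulk RNA, fewer cells of a type and less RNA per cell cannot be told apart.

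Dynlt1f, which has the same transcript length and the same coding frame apart from A21C, overlapped between the groups. Its levels were 16.1, 16.0 and 14.1 CPM in KO and 15.0, 16.1 and 16.6 CPM in WT. The mean was 15.4 ± 1.15 CPM in KO and 15.9 ± 0.841 CPM in WT (SD, n = 3 each). The fit gave a log2 fold change of -0.05 with a 95% interval of -0.24 to 0.15.

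The remaining copies were low in both groups. Dynlt1a had 3.77, 3.23 and 3.19 CPM in KO and 3.39, 3.05 and 3.06 CPM in WT, with a log2 fold change of 0.11 (95% interval -0.25 to 0.46). Dynlt1c had 2.50, 2.06 and 1.75 CPM in KO and 1.72, 1.51 and 1.83 CPM in WT, with a log2 fold change of 0.32 (95% interval -0.16 to 0.80). Both overlapped between the groups, and in both the highest sample was KO replicate 1. Without KO replicate 1 the log2 fold changes were 0.02 for Dynlt1a and 0.17 for Dynlt1c.

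Summed over the 4 copies, Dynlt1 reached 43.2, 42.0 and 41.9 CPM in KO and 88.7, 70.8 and 71.3 CPM in WT. The KO samples lay close together, while WT replicate 1 again stood above WT replicates 2 and 3, and the groups did not overlap. The means were 42.4 ± 0.706 CPM in KO and 76.9 ± 10.2 CPM in WT (SD, n = 3 each). The fitted log2 fold change of the sum was -0.86 (SE 0.09, 95% interval -1.07 to -0.65), a ratio of 0.551. Leaving Dynlt1b out of the sum gave 22.4, 21.3 and 19.0 CPM in KO and 19.9, 20.7 and 21.4 CPM in WT. The difference in the summed Dynlt1 count was therefore carried by counts that the authors' processing had assigned to Dynlt1b.

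Tmem181a was also lower in KO. It had 48.0, 46.0 and 46.3 CPM in KO replicates 1 to 3 and 92.2, 75.6 and 75.6 CPM in WT replicates 1 to 3. No KO sample reached a WT sample, and WT replicate 1 was again the highest. The means were 46.7 ± 1.12 CPM in KO and 81.1 ± 9.60 CPM in WT (SD, n = 3 each). The log2 fold change was -0.79 (SE 0.08, 95% interval -0.99 to -0.60), a ratio of 0.577.

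**Figure D2:**
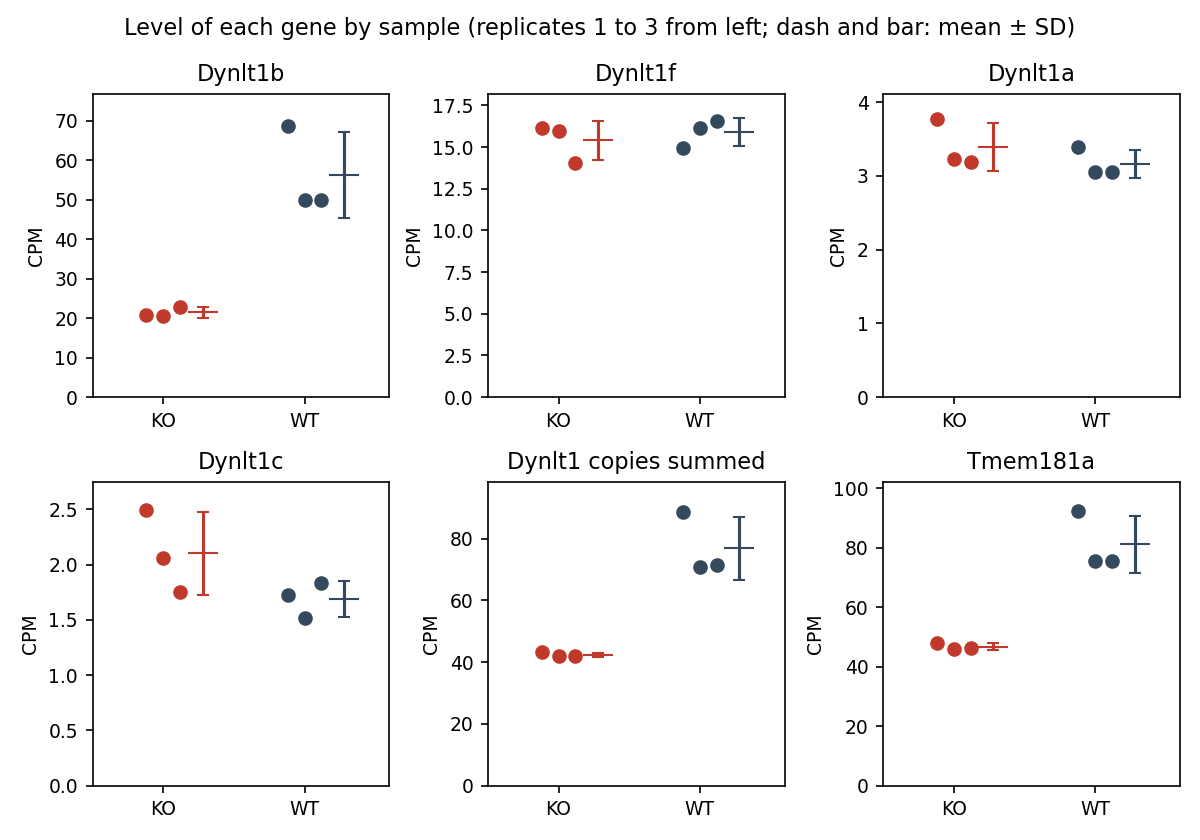
CPM of each Dynlt1 copy, of the summed copies and of Tmem181a in the 3 KO samples (left) and the 3 WT samples (right), with replicates 1 to 3 from left to right, a dash for the mean, a bar for the SD and a CPM axis of its own in each panel. KO lies below WT without overlap for Dynlt1b (20.7 to 22.9 against 49.8 to 68.8 CPM), for the sum and for Tmem181a, while Dynlt1f, Dynlt1a and Dynlt1c overlap.

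By the edgeR quasi-likelihood test over all genes, 2 of the 5 members were past an adjusted p of 0.05, Dynlt1b and Tmem181a, both lower in KO. Of all 12768 genes tested, 86 (0.674%) were past it, 28 of them lower (0.219%) and 58 higher (0.454%). With the replicate number as a block 177 genes were past it. The KO samples lay all below the WT samples for 2 of the 5 members and for 10.9% of all genes tested, and the groups did not overlap in either direction for 22.8%. The same contrast had chosen the members, so nothing is read from these counts or from whether an interval of a member holds 0.

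The makeup of Dynlt1 differed between the groups along with its level. Dynlt1b gave 48.0 to 54.6% of the summed Dynlt1 counts in KO and 69.9 to 77.4% in WT, a mean of 50.7 ± 3.51% in KO and 72.7 ± 4.11% in WT (SD, n = 3 each). The difference was -22.0 percentage points. Dynlt1f gave 36.4 ± 2.42% in KO and 20.98 ± 3.59% in WT, with the same n. Dynlt1a gave 8.02 ± 0.639% in KO and 4.13 ± 0.277% in WT, and Dynlt1c gave 4.97 ± 0.812% in KO and 2.21 ± 0.307% in WT. The shares of these 3 copies were thus larger in KO, where the Dynlt1b share was smaller. Because the shares add up to the whole, this restates the Dynlt1b difference and is not a separate result. These shares compare copies within a library and do not depend on library scaling, but they do depend on how reads were divided among the copies.

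Levels per transcript length, in the authors' TPM (counts scaled by length and library total), allow the copies to be set beside each other. For Dynlt1a the length used was not the same in every sample, so its TPM is less comparable. In KO, Dynlt1b had 46.8, 46.5 and 51.5 TPM and Dynlt1f had 36.5, 35.9 and 31.7 TPM. In WT, Dynlt1b had 156, 111 and 113 TPM and Dynlt1f had 34.0, 35.8 and 37.8 TPM. The ratio of Dynlt1b to Dynlt1f in TPM was 1.28, 1.30 and 1.63 in KO and 4.60, 3.10 and 3.003 in WT, and the groups did not overlap. Dynlt1b was the highest of the 4 copies in every sample and Dynlt1f came next. Dynlt1a (2.20 to 3.44 TPM over the 6 samples) and Dynlt1c (1.00 to 1.69 TPM) were far lower, and Dynlt1a was above Dynlt1c in every sample. Tmem181a had 19.0, 18.1 and 18.2 TPM in KO and 36.7, 29.4 and 30.1 TPM in WT. In KO it thus lay below Dynlt1f, whereas in WT it lay above Dynlt1f in replicate 1 and below it in replicates 2 and 3. The summed copies reached 88.5, 86.8 and 87.0 TPM in KO and 194, 150 and 155 TPM in WT.

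**Figure D3:**
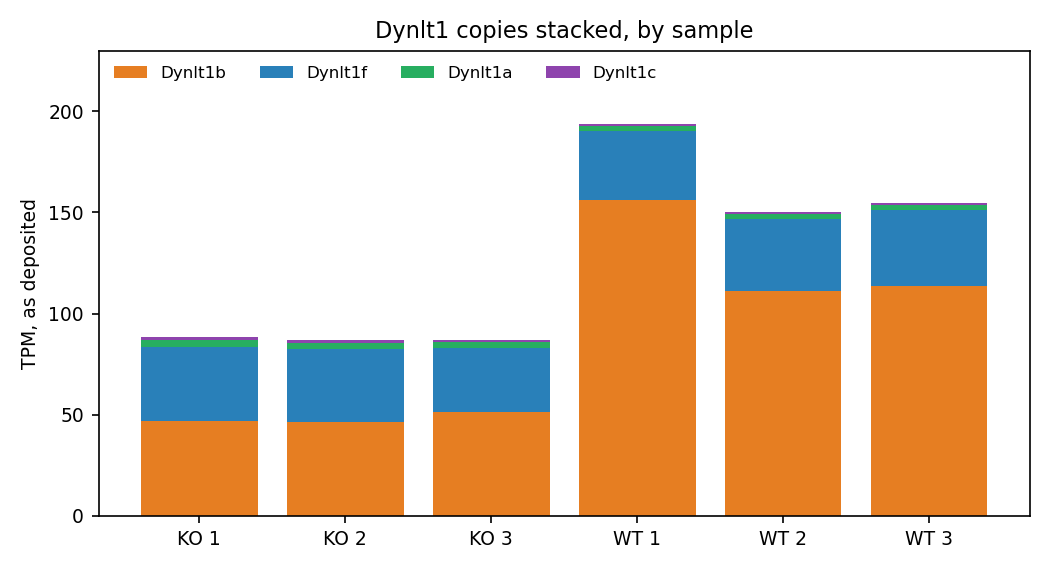
Deposited TPM of the 4 Dynlt1 copies stacked for each sample, KO replicates 1 to 3 on the left and WT replicates 1 to 3 on the right. The Dynlt1b segment is 46.5 to 51.5 TPM in KO and 111 to 156 TPM in WT, while the Dynlt1f segment is 31.7 to 36.5 TPM in KO and 34.0 to 37.8 TPM in WT.

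Summed Dynlt1 and Tmem181a moved together over the samples. Their ratio in CPM was 0.899, 0.913 and 0.907 in KO and 0.962, 0.936 and 0.943 in WT, so it varied little although both levels differed between the groups. The ratio was still lower in every KO sample than in any WT sample. Its mean was 0.906 ± 0.00694 in KO and 0.947 ± 0.0133 in WT (SD, n = 3 each). Among the 9868 genes whose log2 CPM averaged 2 or more, the copies left out, Tmem181a was the gene whose pattern over the 6 samples was most like that of summed Dynlt1. The measure was the root mean square difference of centred log2 CPM values, which was 0.0338 for Tmem181a. The next were Nrn1 on chromosome 13 at 0.0828, Sfn on chromosome 4 at 0.131, Syn1 on the X chromosome at 0.149 and Myh10 on chromosome 11 at 0.150. Nrn1 encodes neuritin, a small membrane-anchored protein, Sfn a 14-3-3 protein, Syn1 a synaptic vesicle protein and Myh10 a non-muscle myosin heavy chain. Their log2 fold changes lay between -0.90 and -0.80, and the 6 samples share the split into KO and WT, so likeness over them is a description only.

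The neighbours of the span were not used to choose the members and were tested. Of the 20 nearest tested genes, 10 on either side within chr17:3326573-8148097, 0 passed the edgeR test with Benjamini-Hochberg adjustment, 7 had an unadjusted p under 0.05, and DESeq2 called 3. Over all genes tested, 1924 (15.1%) had an unadjusted p under 0.05 and DESeq2 called 532 (4.17%). Their median log2 fold change was 0.00, as over all genes tested (-0.00), and 9 of the 20 were below 0. Tulp4, the nearest before the span at 5732 bases, had a log2 fold change of -0.11 (SE 0.07, edgeR adjusted p = 0.496). Next to it lies Gtf2h5, a subunit of the repair and transcription factor TFIIH, at -0.20 (SE 0.06, edgeR adjusted p = 0.225). Sytl3, which encodes a synaptotagmin-like vesicle protein and lies 3193 bases beyond Dynlt1f, had 0.20 (SE 0.15, edgeR adjusted p = 0.555), and 0.06 without WT replicate 3. Ezr, which encodes the membrane-to-actin linker ezrin, had -0.06 (SE 0.06, edgeR adjusted p = 0.659), and its sign turned without replicate 1 of both groups. The smallest adjusted p among the neighbours was 0.0703, for Snx9, a sorting nexin chosen here after its values were seen. Snx9 had 21.1, 24.8 and 23.9 CPM in KO and 35.3, 37.1 and 29.5 CPM in WT, a log2 fold change of -0.55 (SE 0.10). The highest value, 2.32, belonged to Gm49721, also chosen after its values were seen, which stayed under 1 CPM in all 6 samples. Among the 668 genes of chromosome 17 tested, 6 (0.898%) passed, and 4 of them were not members. These 4 were Ttbk1 (log2 fold change -1.28), H2-DMa (0.44), Prss34 (3.76) and Rab44 (2.71), all outside the 20 neighbours. Prss34 averaged 0.972 ± 0.301 CPM in KO and 0.0664 ± 0.0334 CPM in WT (SD, n = 3 each). Rab44 averaged 2.64 ± 1.19 CPM in KO and 0.405 ± 0.111 CPM in WT, with the same n. The large fold changes of Prss34 and Rab44 thus rest on low WT levels.

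**Figure D4:**
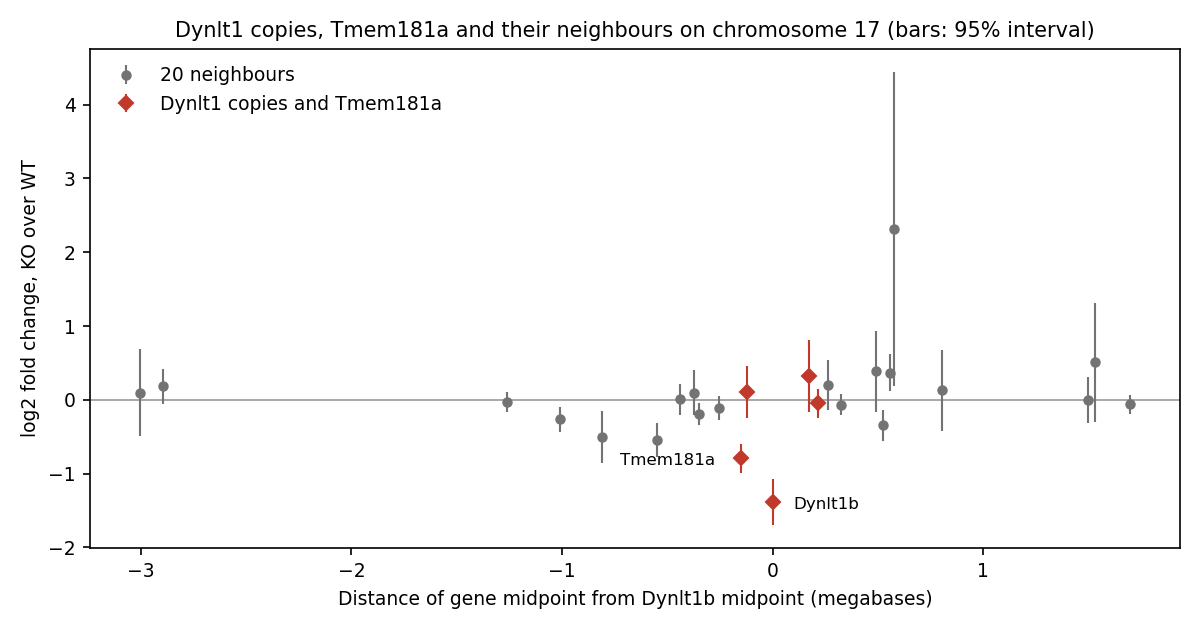
Fitted log2 fold change, KO over WT, with its 95% interval for the 5 members (red diamonds) and the 20 neighbouring genes (grey circles), against the distance of the gene's midpoint from that of Dynlt1b in megabases. Dynlt1b (-1.39) and Tmem181a (-0.79) lie below all 20 neighbours, whose values run from -0.55 to 2.32, while Dynlt1a (0.11), Dynlt1c (0.32) and Dynlt1f (-0.05) lie near 0.

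Genes for other parts of the dynein machinery were tested as well. Over 4 lists of other dynein-1 subunits, dynactin subunits, dynein regulators and adaptors, and other Tctex-type and dynein-2 genes, 1 of the 44 tested genes passed the edgeR test, and it was higher in KO, while 43 did not pass. Over all genes tested 0.674% passed. The median log2 fold change over the 44 genes was -0.02, beside -0.00 over all genes. At an unadjusted p under 0.05 there were 6, and DESeq2 called 3, beside 15.1% and 4.17% of all genes tested. The gene that passed was Dynlrb1, a roadblock-type light chain of dynein-1, with 90.8, 97.2 and 93.2 CPM in KO and 65.8, 71.4 and 70.0 CPM in WT. Each KO sample was above each WT sample, and the log2 fold change was 0.44 (SE 0.05, edgeR adjusted p = 0.0216). The call was lost in 6 of 18 alternatives, among them leaving out KO replicate 2 (adjusted p = 0.0734), KO replicate 3 (0.110), WT replicate 2 (0.0600) or WT replicate 3 (0.0888), with edgeR in each case. Over all 18 alternatives the adjusted p ran from 2.24e-08 to 0.110.

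Of the dynein-1 subunits, 8 of 10 were tested, 1 rose (Dynlrb1) and 7 did not pass. Dynlt3, the other light chain of the Tctex type in dynein-1, had 18.4, 19.6 and 19.9 CPM in KO and 16.0, 22.7 and 20.9 CPM in WT, with overlapping groups and a log2 fold change of -0.04. Of the dynactin subunits, the partners that tether dynein to cargo, 0 of 12 passed. Those with the smallest p were Actr10, the Arp11 subunit, at 0.36 (SE 0.06, edgeR adjusted p = 0.0655) and Dctn3, the p24 subunit, at 0.42 (SE 0.20, edgeR adjusted p = 0.371), which was 0.22 without WT replicate 1. Of the regulators and adaptors 0 of 16 passed, with the smallest p for Nin, which encodes the centrosomal protein ninein, at 0.40 (SE 0.10, edgeR adjusted p = 0.151), and for Spdl1, which encodes the kinetochore adaptor Spindly, at -0.20 (SE 0.07, edgeR adjusted p = 0.251). Of the other Tctex-type and dynein-2 genes 0 of 8 passed, and the smallest p belonged to the dynein-2 subunits Dync2i1 at -0.16 (edgeR adjusted p = 0.370) and Dync2li1 at -0.58 (SE 0.34, edgeR adjusted p = 0.464). Dync2li1 was low, at 0.240, 0.239 and 0.283 CPM in KO and 0.278, 0.405 and 0.452 CPM in WT. Of genes for described binding partners of DYNLT1, 0 of 6 passed and the smallest p belonged to Pvr, the poliovirus receptor, at -0.16 (edgeR adjusted p = 0.433). Actr10 passed in 3 of 18 alternatives, with DESeq2 (adjusted p = 0.000547) and with edgeR without a filter (0.0374) or without replicate 1 of both groups (0.00781). Dctn3 passed in 1, with edgeR without replicate 1 of both groups (adjusted p = 0.0294), and Nin in 1, with DESeq2 (adjusted p = 0.00736). A gene that did not pass is not shown to be equal between the groups.

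The values of the members were recomputed under 18 alternatives. Dynlt1b stayed between -1.47 and -1.19 on the log2 scale, the summed copies between -0.92 and -0.75, and Tmem181a between -0.84 and -0.69. Without KO replicate 1, the sample with the Y-linked mRNAs and the most neutrophil and macrophage mRNA, Dynlt1b was at -1.36, the sum at -0.87 and Tmem181a at -0.81. Without WT replicate 1, the highest sample for all 3 and for the B cell markers, Dynlt1b was at -1.22, the sum at -0.75 and Tmem181a at -0.69. With KO replicates 2 and 3 summed as 1 library, they were at -1.40, -0.85 and -0.79.

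**Figure D5:**
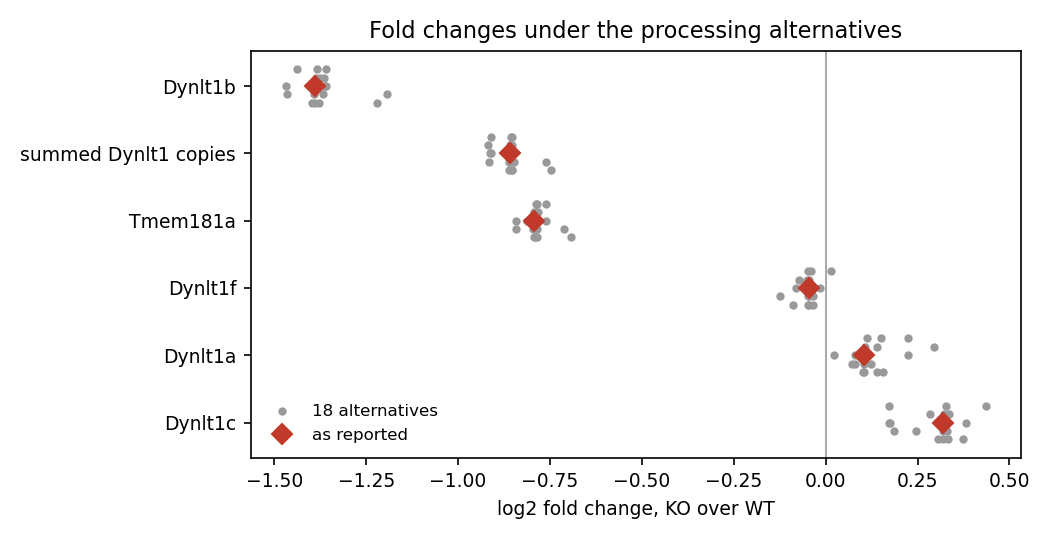
Fitted log2 fold changes, KO over WT, of the members and the summed copies as reported (red diamonds) and under 18 processing alternatives (grey circles). Dynlt1b (-1.47 to -1.19), the sum (-0.92 to -0.75) and Tmem181a (-0.84 to -0.69) lie below 0 throughout, while Dynlt1f runs from -0.12 to 0.02 and crosses 0.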

How the data were processed

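RNA of 6 samples, 3 KO and 3 WT, was measured by mRNA sequencing with a SMARTER library kit, per the labels' protocols. FastQC and HISAT2 were used, per the submitters' processing notes. The genome build, the annotation, the counting program and its use of strand were not given in the sources used here. The authors deposited for each sample a table of estimated counts and a table of TPM, per the file headers; 23.5 to 25.2% of genes had counts that were not whole.

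The estimated counts were rounded to whole numbers. Genes were kept by filterByExpr at its defaults, libraries were scaled by TMM, and the effect of genotype, the only term, was tested with edgeR 4.0.16 in R 4.3.3 (glmQLFit, robust, and glmQLFTest, which is two-sided), with Benjamini-Hochberg adjustment over 12768 genes and a threshold of 0.05. Standard errors, intervals (95%) and CPM are from that fit. For the summed Dynlt1 copies, their rows were replaced by their sum and the fit was repeated. Shares and the ratio of Dynlt1b to Dynlt1f used the unrounded counts or TPM. The ratio of summed Dynlt1 to Tmem181a used CPM from the rounded counts. Alternatives used DESeq2 1.42.0 and limma 3.58.1, with pseudocounts of 1 or 0.1 on TPM, and likeness used a pseudocount of 0.5 on CPM. Identifiers were matched to GENCODE M21 (GRCm38, 21806 of 21899), which need not be the authors' reference, and its sequences were read with Python 3.11.15.

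Samples with the same replicate number deviated together from their group means (r = 0.192, 0.111 and 0.103 for numbers 1 to 3, over genes), while KO replicate 3 and WT replicate 2 gave 0.130 and the other pairs with unlike numbers -0.164 to 0.0671. By a rule that asks for over 0.1 in every pair of like number, the numbers were taken as a possible pairing. That rests on the data and not on the labels. It is weak evidence, because the value for KO replicate 3 and WT replicate 2 lies above those for numbers 2 and 3. The main fit has genotype as its only term, and the block is given as an alternative. The members, lists and rules were chosen with earlier results of these data known. Named were all members, the 2 nearest neighbours on either side and any that passed, in each list of dynein genes and partners those that passed or else the 2 of smallest p, in each list of cell markers those that passed, Dlst, and the 5 genes most like the summed copies; Snx9, Gm49721, Dynlt3, Foxp3, Cd4, Ddx3y and the genes of chromosome 17 that passed were added after their values were seen. The lists of cell markers in which none passed are given by their sums and counts alone, although the rule would also take 2 genes from each, and 1 gene of the partner list is not reported here.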

Additional observations from a re-analysis of the deposited data

How the results depend on the processing

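The direction of Dynlt1b, Tmem181a and the summed copies was the same in all 18 alternatives, with ranges over leaving out 1 sample of -1.47 to -1.22 for Dynlt1b, -0.84 to -0.69 for Tmem181a and -0.92 to -0.75 for the sum. With the replicate number as a block they were at -1.38, -0.79 and -0.85. The count of 2 members past the threshold was 0 with limma on log2(TPM + 1) without a filter, with KO replicates 2 and 3 summed, without KO replicate 2 and without KO replicate 3, and nothing is read from it. The difference in the Dynlt1b share stayed between -24.0 and -18.3 points over the 10 alternatives computed for it. Dynlt1f changed sign without KO replicate 3 (0.0152; range on leaving out 1 sample -0.0876 to 0.0152), and Ezr without replicate 1 of both groups (0.00555). Dynlt1a moved in 3 alternatives, all based on TPM, to at most 0.30. Its counts per TPM, relative to those of Dynlt1b, ran from 2.41 to 2.76 in KO and from 2.61 to 3.16 in WT. Those of Dynlt1c stayed at 3.36.

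The number of genes called, 86, was 532 with DESeq2, 133 without a filter on low counts, 177 with the replicate block, 53 with limma on log2(TPM + 1), 5 with the same without a filter, 8 with KO replicates 2 and 3 summed, and 538 without replicate 1 of both groups; leaving out 1 sample gave 4 to 93. Neighbours called, 0, became 3 with DESeq2, 1 without a filter and 1 without replicate 1 of both groups, and stayed at 0 to 0 on leaving out 1 sample. Dynein genes called, 1, became 3 with DESeq2, 2 without a filter, 0 with limma on TPM without a filter, 0 with KO replicates 2 and 3 summed and 4 without replicate 1 of both groups, with 0 to 1 on leaving out 1 sample. With the block, 5 of the 5 neutrophil markers and 2 of the 5 macrophage and monocyte markers tested were called, against 0 and 1 without it; it changed no call among the members, the neighbours, the other lists, Dlst and the 4 other genes called on chromosome 17. The causes were not tested. Depth limits Dynlt1a and Dynlt1c, and shared sequence limits every single copy.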
